A study of Mus musculus with 6 samples.

Results

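The 10 genes described here are grouped as secreted cytokines of inflammation, namely Tnf, Ltb, Il1a, Il1b, Il1rn, Il18, Il6, Osm, Lif and Csf3. Among them Ltb and Il1a code for products that are bound to cells, and Il1rn codes for an antagonist. The 10 genes were found by matching these mouse symbols to the Ensembl identifiers of a table of raw counts for 24379 genes, and each symbol matched 1 identifier. The counts came from RNA sequencing of RAW264.7 cells, a macrophage-like line grown from a tumour that Abelson leukaemia virus induced in a mouse, so that all libraries stand for 1 line. Cells labelled as treated with HFCS, short for high-fructose corn syrup, a liquid sweetener, gave 3 libraries, and cells labelled WT, the control here, gave another 3. All 6 carry a time of 18 h. Titles and treatment labels state the dose as 140 mM but the source names as 170 mM, and which was used is uncertain. The sources used here do not say what the control cells received.

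Cytokines are small secreted proteins through which macrophages call other cells to a site of damage or infection. Their genes are mostly kept low in resting macrophages and are switched on by transcription factors of the NF-kB, AP-1 and C/EBP families after a danger signal. TNF and lymphotoxin beta belong to one family, IL-1 alpha, IL-1 beta, IL-18 and the IL-1 receptor antagonist to another, and IL-6, oncostatin M and LIF to the group that signals through the shared receptor chain gp130. G-CSF, the product of Csf3, drives the making of neutrophils.

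Total counts per library ran from 13108485 to 15340255, and a gene's level is given in CPM, its counts scaled to a common library size. Of the 10 macrophage markers examined, all were counted, and Cd68, Csf1r, Lyz2 and Cd14 stood at 108 CPM or more in every library, while Mertk was at or near 0. The macrophage markers summed to 2024 to 2104 CPM in HFCS-labelled against 1607 to 1612 CPM in control-labelled libraries, with 7 of the 9 tested markers higher and 2 lower in the former. The 4 T cell markers counted summed to 7.65 to 8.69 against 4.33 to 5.83 CPM, nearly all of it Lck, with Cd3e at 0 in 4 of the 6 libraries. B cell markers summed to 3.99 to 4.87 against 4.72 to 4.80 CPM. Dendritic cell markers summed to 3.60 to 4.09 against 2.47 to 5.06 CPM, with 1 of the 2 tested lower. Neutrophil and fibroblast markers summed to at most 1.34 and 1.01 CPM in any library. Markers of mast cells and epithelial cells, of which 1 of 4 each was counted, summed to at most 0.440 CPM. On the second principal component, which held 11.8% of the variance, control replicate 1 lay at 29.3 and the other two controls at -14.2 and -13.4. Directions below rest on the labels, and each would reverse if the labels were exchanged, which was not tested. Akr1b3, the aldose reductase gene, known to be raised by hypertonic medium, stood at 208 ± 12.0 CPM in HFCS-labelled against 7435 ± 381 CPM in control-labelled libraries (SD, n = 3 each). The part of these differences in the cytokine results was not tested.

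The HFCS-labelled libraries had more of the message of 6 of the 10 cytokine genes and less of 0, and 4 did not pass. The threshold was 0.05 for the Benjamini-Hochberg adjusted p of edgeR (quasi-likelihood) over the 14360 genes tested. The 6 were Il6, Il1b, Csf3, Tnf, Osm and Ltb, and the 4 were Lif, Il18, Il1rn and Il1a. Among all tested genes 22.4% were called higher, 22.5% were called lower and 55.1% were not called. Scaling by library size alone gave 3975 higher and 2624 lower in place of 3223 and 3224. Each of the 6 was at least 2-fold higher, a change found for 4.24% of all tested genes, with Ltb at that limit and under it in several alternatives given below. For these same 6 genes every HFCS-labelled library lay above every control-labelled one, which was so for 27.4% of all tested genes, and for the other 4 the groups overlapped. Without control replicate 1, the library set apart above, all of the 6 still passed, with log2 fold changes of 1.62 for Tnf, 3.06 for Csf3 and 3.91 for Il1b. The median log2 fold change was 1.20 over the 10 and -0.00 over all tested genes. These counts include Il6 and Il1b, which passed the filter on low counts through the HFCS-labelled libraries, since 0 and 1 of their control libraries reached the level it asks of 3. The spread that the p-values measure may be technical, because nothing in the labels says whether the libraries came from separate cultures. In bulk RNA, fewer cells making a message and less of it per cell cannot be told apart.

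**Figure D1:**
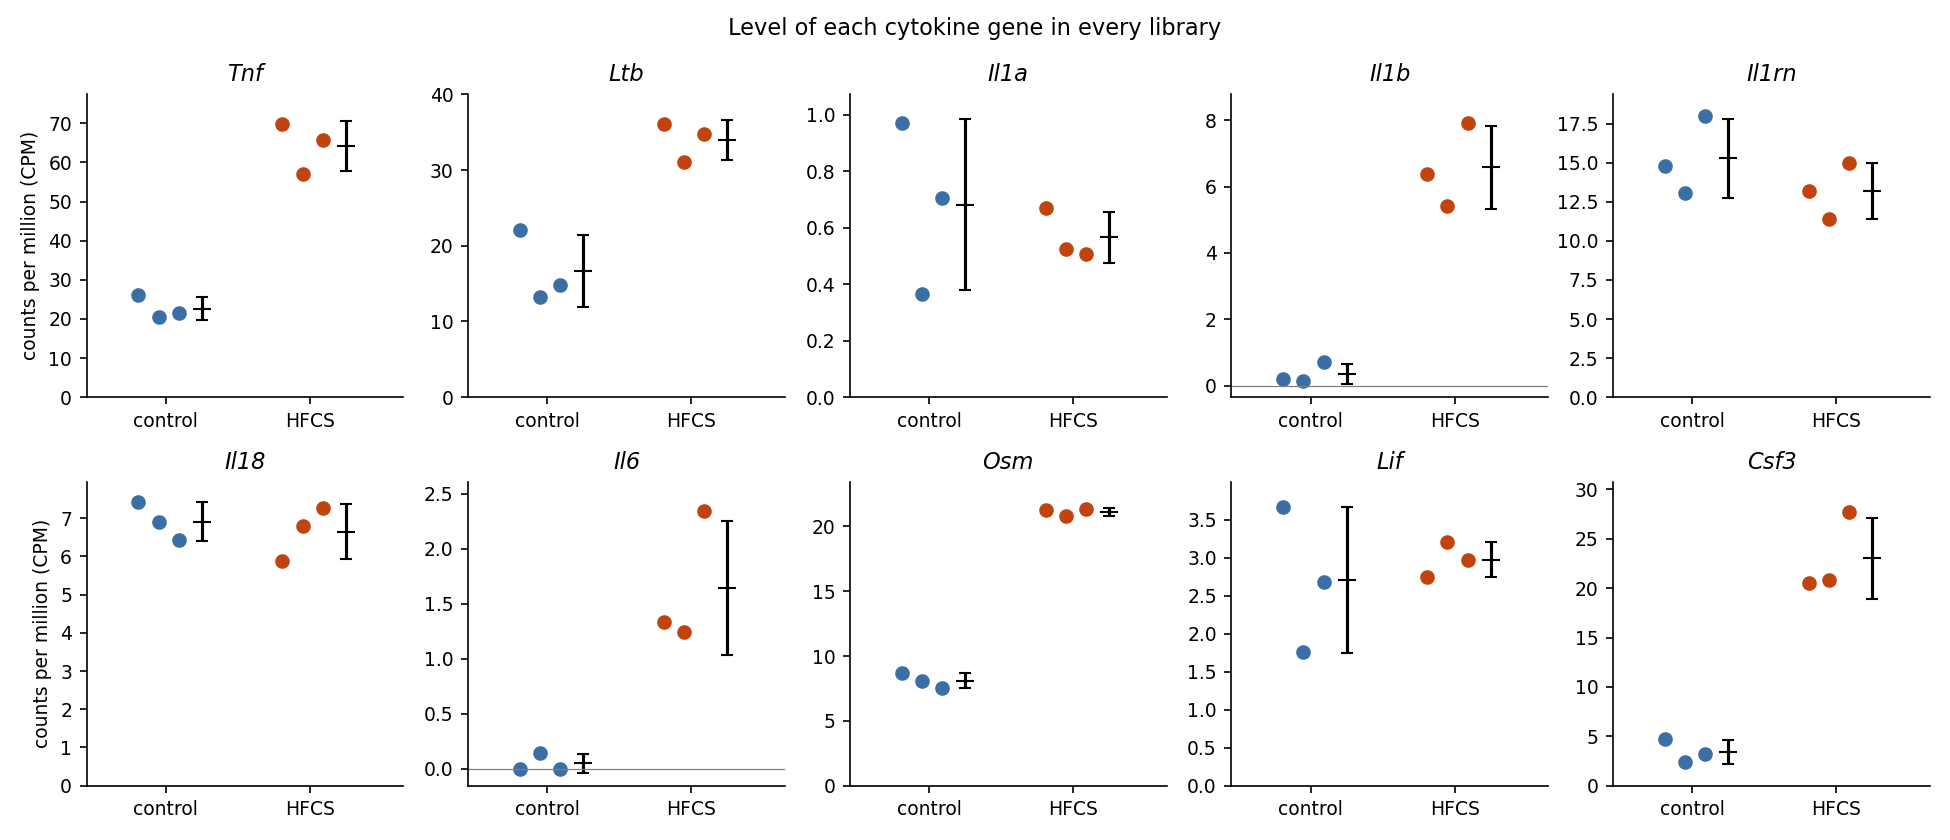
Level of each of the 10 cytokine genes in CPM (vertical axis, linear, a scale for each gene) in the 3 control-labelled (blue) and 3 HFCS-labelled (red) libraries, with the mean and SD beside the points. For Tnf, Ltb, Il1b, Il6, Osm and Csf3 the HFCS points all lie above the control points, as with 57.2 to 69.8 against 20.4 to 26.0 CPM for Tnf.

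The stretches of DNA before these genes are given for 5 of them, among them members with high and low fold changes and a member that did not pass. Whether the letters there go with the fold changes was not tested. Each line holds 250 bases before and 50 after a gene's start, 5′ to 3′ on the gene's strand, from RefSeq on GRCm38.p6 (mm10), and capitals mark matches on either strand to the consensus of NF-kB, to TGANTCA (AP-1), TTGCNNAA (C/EBP), TGACGTCA (the cyclic AMP element) or TATAAA (the TATA box). Il6 (chr5:30012864-30013163, plus strand) and Il1b (chr2:129371090-129371389, minus strand) had the highest fold changes, Tnf (chr17:35201958-35202257, minus strand) the highest level and Ltb (chr17:35194257-35194556, plus strand) the lowest fold change that passed. Lif (chr11:4257318-4257617, plus strand) did not pass.
Il6: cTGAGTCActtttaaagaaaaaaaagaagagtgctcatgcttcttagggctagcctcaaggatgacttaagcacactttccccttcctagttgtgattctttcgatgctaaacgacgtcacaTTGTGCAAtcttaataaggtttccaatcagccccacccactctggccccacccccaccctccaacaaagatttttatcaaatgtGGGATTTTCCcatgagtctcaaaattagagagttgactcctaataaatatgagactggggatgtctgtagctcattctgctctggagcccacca
Il1b: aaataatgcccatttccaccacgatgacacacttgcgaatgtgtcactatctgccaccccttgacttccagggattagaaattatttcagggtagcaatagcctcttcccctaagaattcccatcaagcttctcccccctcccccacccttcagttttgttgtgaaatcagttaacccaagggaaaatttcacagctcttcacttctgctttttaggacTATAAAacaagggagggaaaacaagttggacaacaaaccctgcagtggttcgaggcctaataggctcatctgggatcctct
Tnf: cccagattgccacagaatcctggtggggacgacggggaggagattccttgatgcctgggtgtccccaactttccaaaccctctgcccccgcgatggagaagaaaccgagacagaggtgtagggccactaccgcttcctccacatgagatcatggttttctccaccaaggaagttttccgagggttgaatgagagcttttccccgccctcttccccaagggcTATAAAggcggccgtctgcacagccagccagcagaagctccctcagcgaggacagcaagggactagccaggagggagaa
Ltb: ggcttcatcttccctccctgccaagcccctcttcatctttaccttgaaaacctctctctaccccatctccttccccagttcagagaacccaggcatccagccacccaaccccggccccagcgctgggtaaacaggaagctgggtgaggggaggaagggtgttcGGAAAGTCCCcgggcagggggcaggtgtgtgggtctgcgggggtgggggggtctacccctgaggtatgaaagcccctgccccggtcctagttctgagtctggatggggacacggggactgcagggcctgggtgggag
Lif: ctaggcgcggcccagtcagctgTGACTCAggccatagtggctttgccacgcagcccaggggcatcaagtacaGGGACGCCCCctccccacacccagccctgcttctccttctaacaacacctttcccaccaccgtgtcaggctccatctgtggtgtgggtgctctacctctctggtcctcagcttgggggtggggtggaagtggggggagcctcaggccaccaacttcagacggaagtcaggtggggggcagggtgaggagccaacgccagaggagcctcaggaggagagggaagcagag

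In this window Il6 held an AP-1 match beginning 249 bases before the start, a C/EBP match at 128 and an NF-kB match at 44. Of the 8 members with a window, NF-kB matches lay in 3 (Il6, Ltb and Lif), AP-1 matches in 4 (Il6, Lif, Il1a and Il1rn), and the C/EBP match only in Il6. TATAAA lay 24 to 32 bases before the start on the gene's strand in Tnf, Il1a and Il1b, and on the opposite strand elsewhere in Il18 and in 1 of 3 windows of Il1rn. The cyclic AMP element was found in 0 of the 8. These 8 members have 10 windows and are counted per gene, while the shares that follow are per window. Of 32851 such windows of mouse genes, 8.46% held an NF-kB match, 7.81% an AP-1 match, 10.8% a C/EBP match, 1.79% the cyclic AMP element and 13.6% a TATAAA. NF-kB and AP-1 matches thus lay in Lif, which did not pass, as well as in Il6, which did, and none of these letters shows a factor bound. Csf3 and Osm have no window here.

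Tnf, the gene of the cytokine TNF that starts much of an inflammatory response, had the highest level of the 10 per length of message. It lies on mm10 chromosome 17 at 35199381 to 35202007 on the minus strand. It had 69.8, 57.2 and 65.8 CPM in HFCS replicates 1 to 3 and 26.0, 20.4 and 21.5 CPM in control replicates 1 to 3, from 2853 and 958 counts. The lowest HFCS value, 57.2 CPM, was thus well above the highest control value. The log2 fold change was 1.50 ± 0.11 (SE), or 2.83-fold with a 95% interval of 2.38 to 3.38, and the edgeR adjusted p was 4.6e-06. In level per kilobase of exon, Tnf stood above 71.1% of tested genes in the control-labelled and above 91.6% in the HFCS-labelled libraries.

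Ltb codes for lymphotoxin beta, which holds the lymphotoxin complex at the cell surface, and it ends 3060 bases from Tnf (chromosome 17, 35194439 to 35196320, plus strand). It had 36.1, 31.1 and 34.8 CPM in the HFCS-labelled against 22.1, 13.2 and 14.8 CPM in the control-labelled libraries. Control replicate 1 was the highest of its group and still below every HFCS value. Its log2 fold change was 1.02 ± 0.17 with an edgeR adjusted p of 7.1e-04, and it passed in every alternative run. It was 1.28 without control replicate 1, but under the 2-fold limit without control replicate 2 (0.88), without control replicate 3 (0.94), without HFCS replicate 1 (0.99) and with upper-quartile scaling (0.99). The microRNA gene Mir6973a overlaps Ltb on its own strand, with 9 and 21 counts. On the other side of Tnf, 1157 bases away, lies Lta, the partner chain of lymphotoxin, which had 1.94 ± 0.471 against 2.30 ± 0.912 CPM and did not pass (edgeR adjusted p = 0.593). Lst1, the nearest named gene on the far side of Ltb, was higher by 1.07 on the log2 scale (edgeR adjusted p = 0.0389). The 95% interval for Lta ran from -1.01 to 0.51 on the log2 scale.

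Of the 2 agonists that share the IL-1 receptor, Il1b passed and Il1a did not. Il1b, the gene of the secreted fever-causing cytokine IL-1 beta (chromosome 2, 129364570 to 129371139, minus strand), had 86, 83 and 125 counts in the HFCS-labelled against 3, 2 and 10 in the control-labelled libraries, or 6.39, 5.43 and 7.91 against 0.208, 0.147 and 0.706 CPM. Control replicate 3 gave 10 of the 15 control counts. The log2 fold change was 4.18 ± 0.40, or 18.1-fold with an interval of 9.84 to 33.4, with an edgeR adjusted p of 2.0e-05, and 5.14 without control replicate 3, a move of over 1.5 times in fold. The gene stayed low, above 2.49% of tested genes per kilobase in the control-labelled and 34.9% in the HFCS-labelled libraries. The antisense gene Il1bos overlaps it, with 26 counts in HFCS-labelled libraries and 15 in controls, and reads of the pair cannot be told apart without a stated strand setting.

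Il1a, which codes for IL-1 alpha, a cell-bound alarm signal, lies 54597 bases from Il1b (chromosome 2, 129299610 to 129309972, minus strand). Its counts were 9, 8 and 8 in the HFCS-labelled against 14, 5 and 10 in the control-labelled libraries, and the groups overlapped. The log2 fold change was -0.28 with an interval of -1.31 to 0.75 (edgeR adjusted p = 0.658), which includes a 2-fold lower level but not a 2-fold higher one at this depth. Gm14023, on the opposite strand, overlaps it and had 43 and 39 counts, more than Il1a itself. Ckap2l, the named gene 2397 bases away on the other side, was lower, with a log2 fold change of -0.53 (edgeR adjusted p = 0.00120).

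Il1rn codes for the IL-1 receptor antagonist, which occupies the receptor of both agonists without signalling (chromosome 2, 24336853 to 24351494, plus strand). It had 13.2, 11.4 and 15.0 CPM in the HFCS-labelled against 14.8, 13.1 and 18.0 CPM in the control-labelled libraries, and the groups overlapped. The log2 fold change was -0.21 ± 0.15 with an interval of -0.55 to 0.13 (edgeR adjusted p = 0.293). This interval holds no change as large as that of Tnf, Osm or Ltb.

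The balance of agonist and antagonist messages within a library does not depend on how libraries are scaled. Il1b made up 32.6, 32.3 and 34.5% of the counts of Il1b and Il1rn together in the HFCS-labelled against 1.39, 1.11 and 3.77% in the control-labelled libraries, a difference of 31.0 percentage points (53.2 with counts divided by exon length). The exact (Clopper-Pearson) 95% limits were 26.6 to 38.4% for HFCS replicate 2, the lowest of its group, and 1.82 to 6.83% for control replicate 3, the highest of its group, and they cover counting error only. Per kilobase, Il1b was below Il1rn in the control-labelled libraries (0.185 ± 0.161 against 2.76 ± 0.453 CPM per kilobase) and above it in the HFCS-labelled ones (3.45 ± 0.657 against 2.39 ± 0.327). Tnf made up 65.4 ± 0.554% of the counts of Tnf and Ltb against 58.0 ± 3.50%, a difference of 7.38 points. Il1a made up 8.09 ± 1.83% of the counts of Il1a and Il1b in the HFCS-labelled against 67.9 ± 16.5% in the control-labelled libraries. A two-sided exact permutation test gave p = 0.1 for each of the 4 shares examined (adjusted p = 0.1 over the 4), which is the smallest p that 3 libraries against 3 allow.

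**Figure D2:**
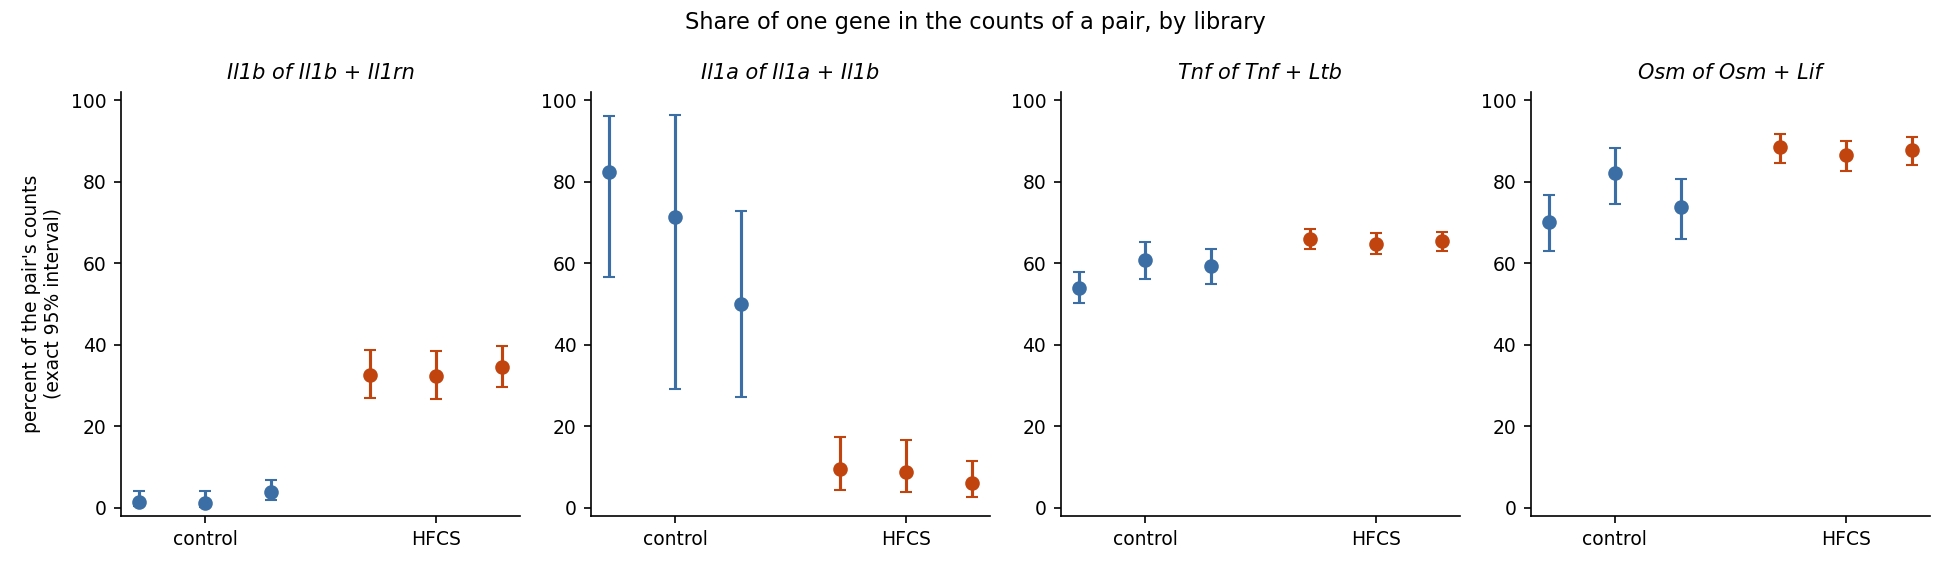
Share of the first gene in the summed counts of a pair (vertical axis, percent), for 4 pairs of cytokine genes, in each control-labelled (blue) and HFCS-labelled (red) library, with exact 95% intervals for counting error. The groups do not overlap in any of the 4 pairs, and the widest gap is that of Il1a and Il1b, whose control intervals are the widest. In the pairs with Il1rn, Il1a and Lif, which did not pass, the share mostly restates the fold change of the gene that did. How often other pairs of genes do not overlap was not examined.

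Il18, the gene of a member of the IL-1 family that prompts lymphocytes to make interferon gamma, is on chromosome 9 (50554827 to 50581840, plus strand). It had 5.87, 6.80 and 7.28 CPM in the HFCS-labelled against 7.42, 6.90 and 6.42 CPM in the control-labelled libraries, and the groups overlapped. Its log2 fold change was -0.05 ± 0.16 with an interval of -0.41 to 0.30 (edgeR adjusted p = 0.808). Bco2 and Tex12 overlap it on the opposite strand, and Bco2 had 679 and 671 counts where Il18 had 298 and 292.

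Il6 codes for IL-6, which drives fever and the acute-phase response of the liver (chromosome 5, 30013114 to 30019981, plus strand). It was counted 18, 19 and 37 times in HFCS replicates 1 to 3 and 0, 2 and 0 times in control replicates 1 to 3, where 3 counts are the limit that a count of 0 allows. The ratio of the scaled counts was 35.1 with a 95% counting interval of 9.37 to 295, and the edgeR adjusted p was 4.5e-04. The fitted log2 fold change of 4.89 depends on the prior count and is not a bound. Without control replicate 2, which held both control counts, Il6 was at least 15.8-fold higher against a floor of 3 counts over the group. Even so Il6 stayed among the least abundant messages of the HFCS-labelled libraries, above 13.5% of tested genes per kilobase.

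Osm and Lif, neighbours on chromosome 11 code for products that both signal through gp130, and Osm passed while Lif did not. Osm, the gene of oncostatin M (4236420 to 4241026, plus strand), had 21.2, 20.8 and 21.3 CPM in the HFCS-labelled against 8.67, 8.07 and 7.55 CPM in the control-labelled libraries. It was the most even of the members, since the HFCS-labelled libraries varied by 1.36% of their mean, where counting error alone gives 5.65%. Osm had a log2 fold change of 1.38 ± 0.12, or 2.61-fold with an interval of 2.18 to 3.12, and the edgeR adjusted p was 8.9e-06. Lif, the gene of leukaemia inhibitory factor (4257557 to 4272514, plus strand), begins 16530 bases after the end of Osm. It had 2.75, 3.20 and 2.98 CPM against 3.68, 1.76 and 2.68 CPM, with the highest and the lowest value both among the controls. Its log2 fold change was 0.13 ± 0.28 with an interval of -0.48 to 0.75 (edgeR adjusted p = 0.725), and 0.42 without control replicate 1 and -0.09 without control replicate 2, neither of which passed. Osm made up 87.7 ± 0.953% of the counts of the pair in the HFCS-labelled against 75.4 ± 6.09% in the control-labelled libraries, a difference of 12.3 points, or 7.81 with counts divided by length. Castor1, the named gene before Osm, was lower, with a log2 fold change of -0.33 (edgeR adjusted p = 0.0217). Hormad2, 73299 bases beyond Lif, was too low for the test, at 0 against 0.144 ± 0.147 CPM.

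Csf3 (chromosome 11, 98701263 to 98703629, plus strand) had 20.5, 20.8 and 27.7 CPM in the HFCS-labelled against 4.72, 2.35 and 3.18 CPM in the control-labelled libraries. HFCS replicate 3 was the highest, as it was for Il1b and Il6. Csf3 had a log2 fold change of 2.75 ± 0.22, or 6.71-fold with an interval of 4.77 to 9.44, and the edgeR adjusted p was 7.2e-06. Its level per kilobase went from above 28.8% to above 75.3% of tested genes. Of the 8 members whose entry into the test did not rest on the HFCS-labelled libraries alone, it had the highest fold change.

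**Figure D3:**
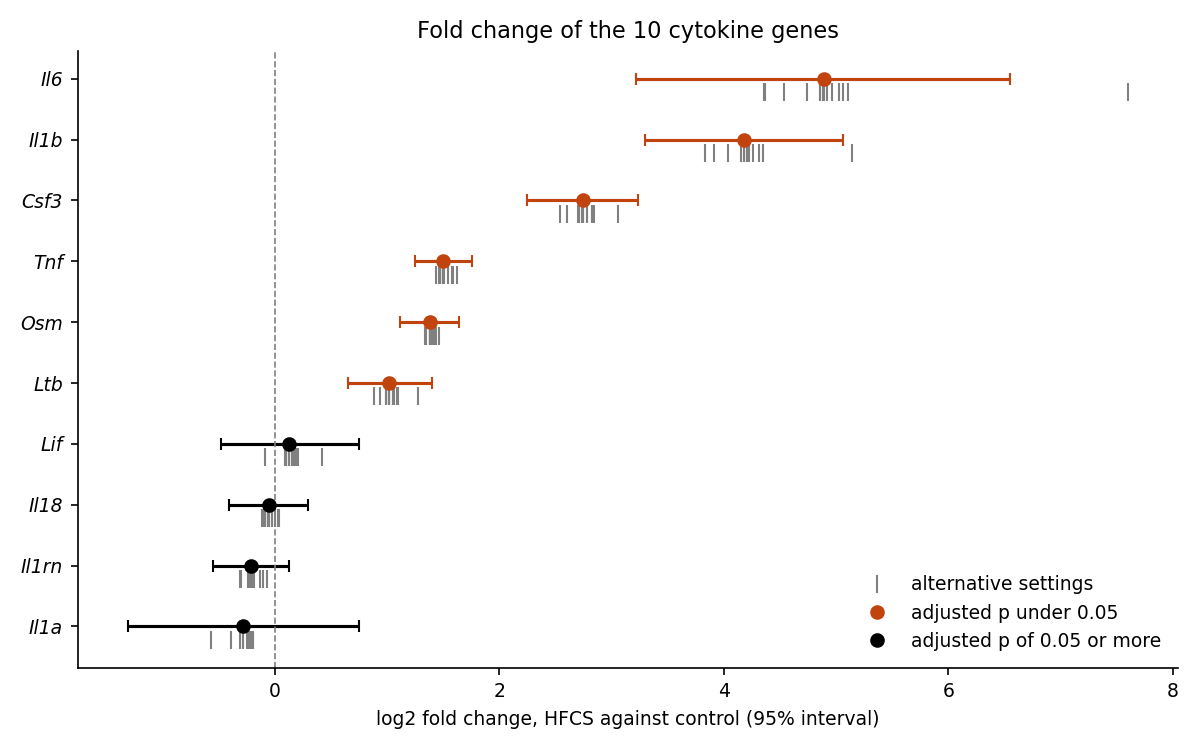
Log2 fold change of each cytokine gene, HFCS-labelled against control-labelled libraries (horizontal axis), with its 95% interval, in red where the adjusted p is under 0.05, and short grey lines for the values under the alternative settings. The intervals of Lif, Il18, Il1rn and Il1a include 0, and the grey line of Il6 at 7.60 is from leaving out control replicate 2, which held its only control counts.

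Ordered by CPM per kilobase of exon, the control-labelled libraries had Tnf (13.8 ± 1.81), Ltb (11.0 ± 3.13), Il18 (6.71 ± 0.484), Osm (3.56 ± 0.246), Il1rn (2.76 ± 0.453), Csf3 (2.42 ± 0.850), Lif (0.622 ± 0.220), Il1a (0.345 ± 0.153), Il1b (0.185 ± 0.161) and Il6 (0.0202 ± 0.0349). The libraries of Tnf and Ltb overlapped, as did those of Il1rn and Csf3, of Lif and Il1a and of Il1a and Il1b. In the HFCS-labelled libraries the order was Tnf (39.2 ± 3.93), Ltb (22.4 ± 1.73), Csf3 (16.3 ± 2.89), Osm (9.30 ± 0.126), Il18 (6.45 ± 0.696), Il1b (3.45 ± 0.657), Il1rn (2.39 ± 0.327), Lif (0.684 ± 0.0525), Il6 (0.676 ± 0.251) and Il1a (0.287 ± 0.0452). There only Lif and Il6 overlapped among neighbours. Csf3 went from the sixth place to the third and Il1b from the ninth to the sixth. The 10 genes together held 174 ± 14.1 CPM in the HFCS-labelled against 76.9 ± 11.1 CPM in the control-labelled libraries, and without Tnf 110 ± 9.44 against 54.2 ± 8.27 CPM. Of the sum per kilobase, Il18 made up 16.4 ± 1.95% in the control-labelled and 6.40 ± 0.826% in the HFCS-labelled libraries, though its own level did not pass, and Csf3 made up 5.71 ± 1.11% and 16.1 ± 2.06%.

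**Figure D4:**
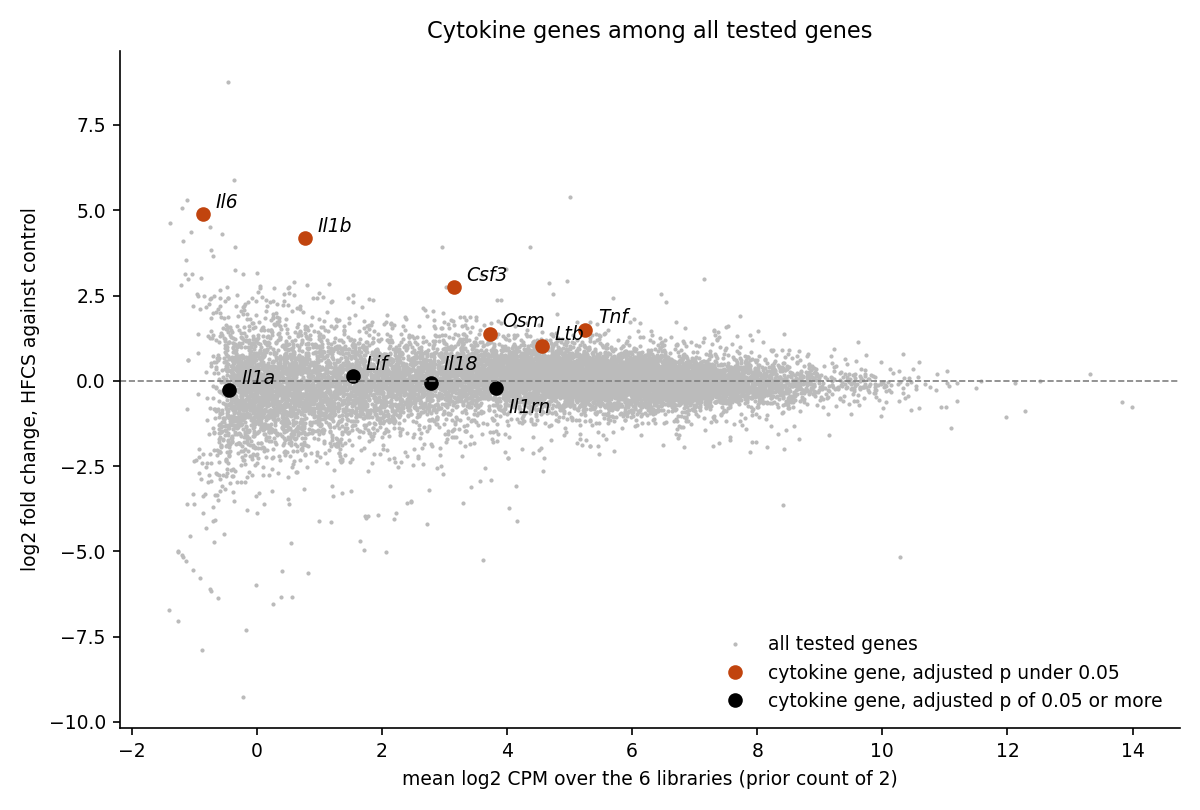
Log2 fold change (vertical axis) against mean log2 CPM over the 6 libraries (horizontal axis) for all 14360 tested genes (grey) and the 10 cytokine genes (red where the adjusted p is under 0.05, otherwise black). Il6 and Il1b lie at the low, widely scattered end, where Il6 has 2 control counts and Il1b 15, while Tnf and Ltb lie among more abundant genes.

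Of 11 tested receptors, co-receptors and binding proteins of these cytokines, 7 (63.6%) were higher, 2 (18.2%) were lower and 2 did not pass, with a median log2 fold change of 0.63. Among all tested genes 22.4% were higher and 22.5% lower, and whether this or any list below differs from them was not tested. The lists were chosen with earlier results of these data known, so their shares may in part follow from that choice. Csf3r, the receptor of G-CSF, went from 5.03 ± 1.05 to 15.5 ± 1.53 CPM, with a log2 fold change of 1.62 and an edgeR adjusted p of 3.6e-05, so that ligand and receptor genes were both higher. Ltbr, which binds the lymphotoxin complex, had 43.1 ± 1.49 against 19.6 ± 4.31 CPM (log2 fold change 1.14), and Il1rap, the second chain of the IL-1 receptor, 20.2 ± 2.59 against 9.56 ± 2.74 CPM (1.08). Il18rap, the second chain of the IL-18 receptor, was lower, at 49.6 ± 2.64 against 118 ± 16.4 CPM (-1.25, edgeR adjusted p = 7.1e-06). Il6st, which codes for gp130, did not pass, with 112 ± 2.38 against 118 ± 5.99 CPM. The ligand-binding chains Il1r1 (4 counts in all in HFCS-labelled and 24 in control-labelled libraries), Il18r1 (0 and 16) and Lifr (1 and 5) were too low for the test. With no filter on low counts Il1r1 and Il18r1 were called lower (edgeR adjusted p = 0.0380 and 0.0128), making 4 lower receptor genes. Of the 16 receptor symbols looked for, 14 were in the table, and Osmr and Il1r2 are not among those 14.

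Of 16 tested genes for the processing and release of cytokines, 7 (43.8%) were higher and 4 (25.0%) lower, with a median of 0.26, beside the 22.4% and 22.5% of all tested genes. Nlrp3, the sensor of the inflammasome that activates caspase-1 to cut IL-1 beta and IL-18, had 30.5 ± 3.85 CPM in HFCS-labelled libraries and was higher by 1.60 ± 0.13 on the log2 scale (edgeR adjusted p = 8.5e-06). Pycard, the gene of the adaptor that links NLRP3 to caspase-1, had only 1.21 ± 0.522 against 0.212 ± 0.244 CPM (2.47, edgeR adjusted p = 0.0105). It is among the 7 higher genes, but passed the filter on low counts through the HFCS-labelled libraries. Whether IL-1 beta or IL-18 was cut was not tested. Ninj1, whose product ruptures the membrane of dying cells, had 79.1 ± 7.07 against 179 ± 19.6 CPM (-1.18, edgeR adjusted p = 6.8e-06). Adam17, the protease that frees TNF from the cell surface, did not pass, with 310 ± 11.4 against 286 ± 16.2 CPM, while Rhbdf2, which brings it to the surface, was higher by 0.40 on the log2 scale. Pycard, Adam17 and Rhbdf2, like Il6st above and Zc3h12a and Socs3 below, were named after their values were seen, for their roles.

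Of 19 tested genes that set how fast cytokine messages decay, 4 (21.1%) were higher, 6 (31.6%) lower and 9 did not pass, with a median of 0.01, where 22.4% of all tested genes were higher and 22.5% lower. Arid5a, whose product protects Il6 messages from decay, had 18.8 ± 0.785 against 5.14 ± 1.23 CPM (log2 fold change 1.87, edgeR adjusted p = 1.4e-05). Zfp36, which codes for the decay factor tristetraprolin, was higher by 0.74, Dusp1 by 0.76 and Mapk14, the p38 kinase gene, by 0.41. The 6 lower genes had log2 fold changes of -0.57 for Rc3h1, the gene of roquin-1, which marks cytokine messages for decay, -0.46 for Zfp36l1, a relative of Zfp36, -0.35 for Tia1, -0.32 for Hnrnpd, -0.28 for Tial1 and -0.27 for Cnot1. These 9 genes were named after their values were seen. Zc3h12a, the gene of the endonuclease regnase-1, did not pass, with 82.2 ± 4.09 against 82.1 ± 9.62 CPM. The count of higher genes was 8 with scaling by library size alone and 7 without control replicate 1, and the count of lower genes was 3 without HFCS replicate 1.

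Of 25 tested transcription factors and cofactors of cytokine genes, 18 (72.0%) were higher, Hif1a was lower and 6 did not pass, with a median of 0.88. The shares of all tested genes were 22.4% higher and 22.5% lower. Fos had 48.9 ± 12.3 against 5.07 ± 0.178 CPM (log2 fold change 3.27), the NF-kB cofactor gene Bcl3 54.8 ± 4.39 against 14.2 ± 3.67 CPM (1.95) and Batf 7.68 ± 1.14 against 2.42 ± 0.324 CPM (1.66). Fosl2, Nfkb2 and Junb were higher by 1.49, 1.35 and 1.33. The edgeR adjusted p of these 6 lay between 6.1e-07 and 1.0e-04. Without control replicate 1 the count of lower genes was 2.

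Of 21 tested inhibitors and feedback genes, 12 (57.1%) were higher, 2 (9.52%) were lower and 7 did not pass, with a median of 0.39. For all tested genes the shares were 22.4% and 22.5%. Socs1, an inhibitor of cytokine receptors, had 2.24 ± 1.11 against 0.357 ± 0.193 CPM (log2 fold change 2.61), Cish 2.58 ± 0.532 against 0.543 ± 0.207 CPM (2.23) and Nfkbie, an inhibitor of NF-kB, 24.1 ± 3.41 against 7.38 ± 0.893 CPM (1.71). Socs1 and Cish, like Il6 and Il1b, passed the filter on low counts through the HFCS-labelled libraries. Irak3 and Nfkbia were higher by 1.26 and 1.03. Socs3, the inhibitor that IL-6 family cytokines are known to induce, did not pass, with 46.7 ± 2.58 against 45.4 ± 10.8 CPM (edgeR adjusted p = 0.847).

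Of 59 other cytokine genes looked for, 41 were in the table and 19 were tested. Of these 19, 3 (15.8%) were higher, 3 (15.8%) were lower and 13 did not pass, with a median of -0.11. With only 19 genes tested, both shares lay near those of all tested genes, 22.4% higher and 22.5% lower. Csf1, the macrophage growth factor gene, had 9.55 ± 1.16 against 4.26 ± 0.135 CPM (log2 fold change 1.16), and Il15 1.07 ± 0.160 against 3.15 ± 0.269 CPM (-1.55). Il23a had 1.92 ± 0.313 against 0.778 ± 0.557 CPM (1.29, edgeR adjusted p = 0.0346), but did not pass when any library but control replicate 3 was left out. Il23a, too, passed the filter on low counts only with the help of the HFCS-labelled libraries. Whether the 10 cytokine genes differ from these lists was not tested.

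**Figure D5:**
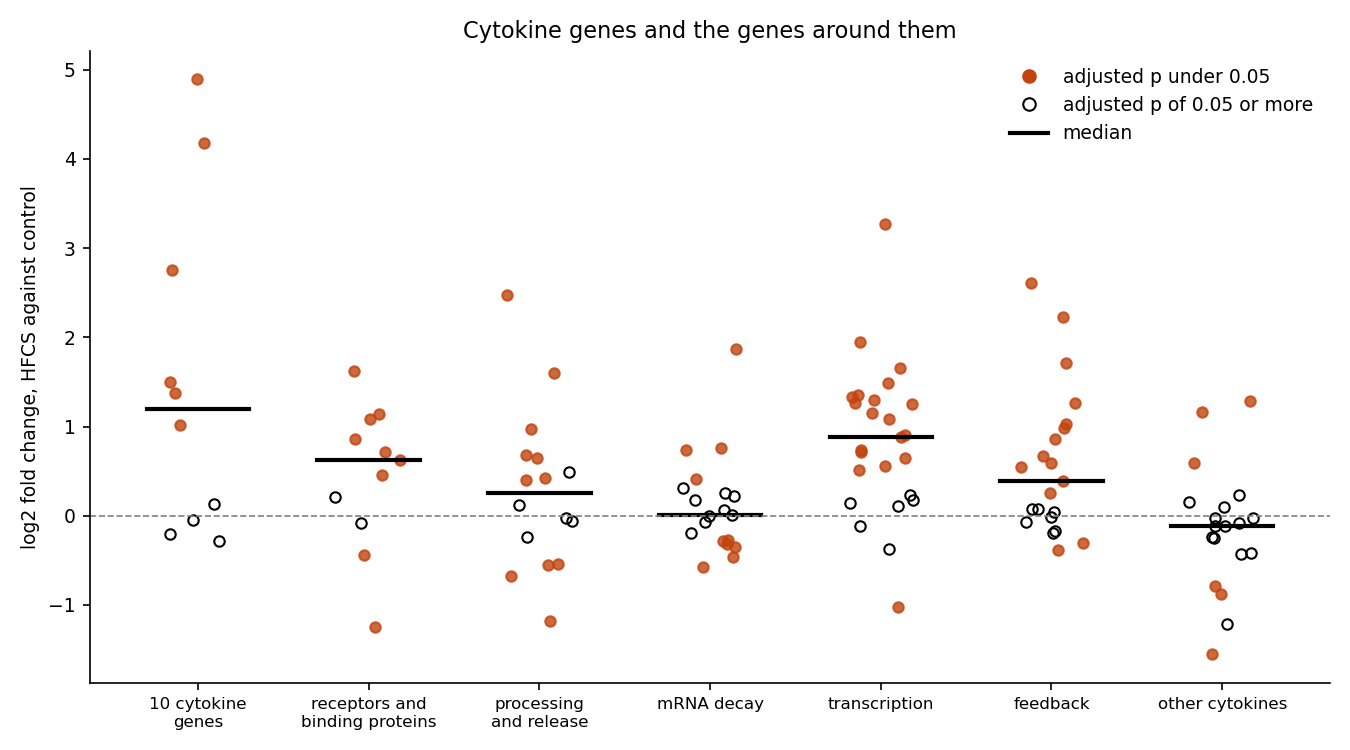
Log2 fold change, HFCS-labelled against control-labelled libraries (vertical axis), of the 10 cytokine genes and of the tested genes of 6 lists around them, filled red where the adjusted p is under 0.05 and open otherwise, with a bar at each median. Medians are 1.20 for the 10 genes, 0.88 for transcription and -0.11 for other cytokines.

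Likeness of pattern was taken as the root mean square difference of centred log2 CPM over the 6 libraries, which mostly reflects the difference between the groups. Nearest to Tnf among 10882 other named genes were Fosl2 (0.07), Rhob (0.08) and Nlrp3 (0.10), and nearest to Osm were Sirpa, Nfkb2 and Rhob, each at 0.06. Ltb was nearest to Psd (0.08), Jdp2 and Rhbdl1 (0.09 each). Csf3 was nearest to Aoah (0.18), Cxxc5 (0.20) and Pygm (0.25). Il1b lay at 0.28 from Tenm4 and 0.43 from Ccl2, its nearest, and Il6 at 0.18 from Ctla2a and 0.34 from Fos and Ccl7. Il18 (Rcor3, 0.04), Il1rn (Coq10a, 0.06), Lif (Dnah17, 0.07) and Il1a (Ceacam19, 0.07) were closest to genes whose own log2 fold changes lay between -0.29 and 0.19.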

How the data were processed

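RNA was taken from 6 RAW264.7 libraries, 3 labelled HFCS and 3 labelled WT, and groups follow the sample titles. The deposited table holds unnormalised read counts. The submitters' processing notes name HISAT2 2.0.5, featureCounts 1.5.0-p3, CASAVA and mm10. The sources used here do not give the annotation release, strand setting or filters, so reads of overlapping genes cannot be told apart; 4 of the 10 members overlap another listed gene. Symbols were matched for 24344 of 24379 identifiers, and exon lengths came from GENCODE M21, where 97.2% of genes had the same coordinates.

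Genes passing edgeR's filterByExpr (minimum count 10) were scaled by TMM and tested with edgeR 4.0.16 (glmQLFit, glmQLFTest, R 4.3.3), with Benjamini-Hochberg adjustment over 14360 genes and a threshold of 0.05. SEs follow from the F statistic. The floor is 3 counts, or 0.190 to 0.223 CPM per library, and intervals cover counting error only where so described. The edgeR step was tested on simulated data. The members and lists were chosen with earlier results of these data known. Named genes are all members, up to 6 genes per list that passed with at least 2-fold change and 1 CPM, nearest named genes within 100 kb of clustered members, and for each member 3 genes of most like pattern. Alternatives were other scalings, DESeq2 1.42.0, limma-voom (limma 3.58.1), other filters, the replicate number as a block and each library left out in turn.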

Additional observations from a re-analysis of the deposited data

How the results depend on the processing

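The count of 6 higher and 0 lower cytokine genes was the same under all 14 alternatives, while all tested genes gave 2626 to 3975 higher and 2489 to 3690 lower. Log2 fold changes of the 6 ranged from 1.44 to 1.62 for Tnf, 0.88 to 1.28 for Ltb, 1.34 to 1.46 for Osm, 2.54 to 3.06 for Csf3, 3.83 to 5.14 for Il1b and 4.36 to 7.60 for Il6. The 7.60 is without control replicate 2, where 0 control counts are left and Il6 was at least 15.8-fold higher by a floor of 3 counts over the group. Il18 changed sign with scaling by library size alone (0.03), without HFCS replicate 1 (0.04) and without control replicate 1 (0.00), and Lif without control replicate 2 (-0.09), none of which passed. With libraries left out, Il18 ranged from -0.11 to 0.04 and Lif from -0.09 to 0.42. Library-size scaling moved the median of all tested genes to 0.08. It gave 8 higher decay genes and 1 lower feedback gene, and having no filter gave 4 lower receptor genes, since more genes were tested. With the replicate number as a replicate block, the decay list had 7 higher genes, and no call on a member changed. The replicate numbers were not taken as pairs, since nothing in the labels ties them and same-numbered deviations correlated at 0.167, -0.064 and 0.191, not all over 0.1. Still, 4 of 6 libraries correlated best with their own number, but these are replicates 1 and 3 counted from both sides. Control replicate 1 correlated at 0.17 with HFCS replicate 1 and at 0.16 with HFCS replicate 2. HFCS replicate 3 correlated at 0.19 with control replicate 3 and at 0.16 with control replicate 2. Such near ties cannot decide whether the numbers are pairs. With libraries left out in turn, higher decay genes numbered 4 to 7, lower decay genes 3 to 6, lower transcription genes 1 to 2 and lower feedback genes 1 to 3. Il1a was too low to test without control replicate 1 or with 10 counts asked of every library of a group. Apart from these, the cause of such differences was not tested. Depth limits the precision for Il1b and Il6, with 15 and 2 control counts over 3 libraries.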
